A study of Mus musculus with 36 samples.

Results

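Supporting cells of the fetal mouse testis were compared between 13.5 and 12.5 days post coitum (dpc). The comparison used 6 arrays, 3 at each stage, of the 36 arrays in the series. They were chosen by their titles, which name cells sorted on Sox9 from XY gonads at 13.5 or 12.5 dpc. The XY cells of both stages carried Tg(Sox9-cre/ERT2)1Msan/J and were progeny of C57BL/6, so genetic background did not differ between them. For comparison, XX supporting cells at 13.5 and 12.5 dpc, 3 arrays each, carried Tg(Sry-EGFP)92Ei and were progeny of CD-1. XX and XY supporting cells at 11.5 dpc, 3 arrays each with titles naming Sry, entered only the estimate of spread. The fluorescent allele and any inducer used with the Sox9-driven Cre are not given in the sources used here. Embryonic gonads were pooled by sex, treated with trypsin, stained with DAPI and sorted by flow cytometry, and their RNA was measured on Affymetrix Mouse Gene 1.0 ST arrays. Whether arrays of 1 group stem from different litters or pools is not stated, so every p-value reflects the spread among arrays alone, and that spread may be technical.

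Supporting cells are the somatic lineage that surrounds the germ cells. In the XY gonad SRY switches on SOX9, and the cells become Sertoli cells, which secrete anti-Müllerian hormone, enclose the germ cells in cords and send signals such as desert hedgehog to the interstitium. The testosterone precursors of the fetal testis are made by fetal Leydig cells in that interstitium, with Sertoli cells contributing a late step of the synthesis.

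The sorted XY cells carried the markers that their label names. The median level of 16 Sertoli cell markers lay between 9.93 and 10.00 at 13.5 dpc and between 10.04 and 10.16 at 12.5 dpc, on the deposited log2 scale. In XX supporting cells the same median was 7.23 to 7.24 at 13.5 dpc and 7.19 to 7.49 at 12.5 dpc. The Y-linked gene Eif2s3y stood at 9.28 or higher in the 13.5 dpc XY arrays and at 8.82 or higher in the 12.5 dpc XY arrays. Xist, the RNA that silences an X chromosome, was at most 5.26 in the 13.5 dpc XY arrays and at most 5.78 in the 12.5 dpc XY arrays. All differences below are 13.5 minus 12.5 dpc in log2 with the standard error (SE) of the fit, and p-values are limma's, adjusted over 19938 genes.

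At the deposited scale, 34 genes were higher at 13.5 dpc (0.171% of the genes tested) and 239 were lower (1.2%). Array medians also differed, at 6.78, 6.74 and 6.83 at 13.5 dpc and 6.99, 6.93 and 6.93 at 12.5 dpc, and the median difference over all genes was -0.17. The rows of each array's column divided into interleaved sets with a linear scale each, a feature that no label describes. In XY 12.5 dpc replicates 1 and 2 and XY 13.5 dpc replicate 1 these sets held the same genes, with 99.8% of genes matching. A single set, with about as many genes as each of the others, held 176 of the 239 genes called lower and 3 of the 34 called higher, and its median difference was -0.34. The other sets had median differences of -0.01 and -0.17. After the sets were aligned the medians were -0.02, -0.03 and -0.02. Correlations between arrays of the 12.5 dpc group were 0.967 to 0.980 as deposited and 0.991 to 0.992 after alignment.

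**Figure D1:**
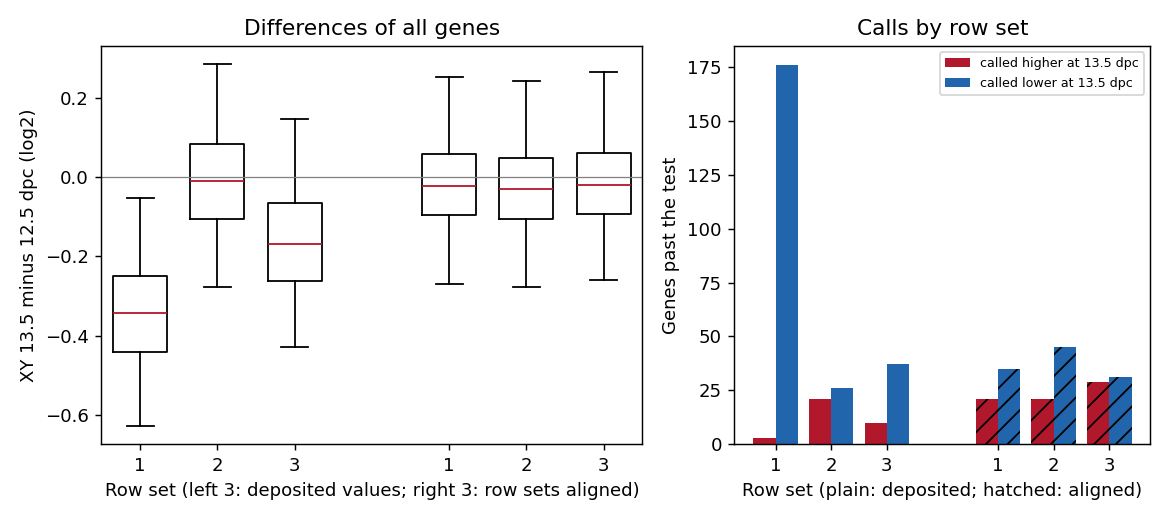
Left, distribution over genes of the XY 13.5 minus 12.5 dpc difference (log2) in the row sets of XY 12.5 dpc replicate 1, as deposited and after alignment (line, median; box, quartiles; whiskers, 5th and 95th percentiles). Right, number of genes past the test, higher or lower at 13.5 dpc. As deposited, row set 1 has a median of -0.34 and holds 176 of the 239 genes called lower.

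Genes were therefore read under 3 scalings: as deposited, with each array centred on its median, and with the row sets aligned. Centring gave 70 higher (0.351%) and 75 lower genes (0.376%), and alignment gave 71 higher (0.356%) and 111 lower genes (0.557%). All 3 scalings called 27 genes higher and 57 lower. Of the 239 genes called lower as deposited, 140 were called under neither other scaling. Sizes below are as deposited unless another scaling is named, and many decreases were smaller after alignment. Each of the 12 refits that left out 1 of the 6 arrays, as deposited or aligned, still called 11 of the 27 higher and 23 of the 57 lower genes.

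The gene 4930486L24Rik had 8.30, 8.36 and 8.37 at 13.5 dpc and 6.76, 6.07 and 5.90 at 12.5 dpc. It rose by 2.10 (SE 0.18, adjusted p = 8.1e-07), or 4.3-fold, the largest difference called under all 3 scalings. Ctnna2, an alpha-catenin that ties cadherins to actin, had 7.87, 7.82 and 8.24 at 13.5 dpc and 6.23, 6.52 and 5.95 at 12.5 dpc. The stages did not overlap for either gene, and Ctnna2 rose by 1.75 (SE 0.16, adjusted p = 1.52e-06).

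Jam2, a junctional adhesion molecule, had 9.67, 9.21 and 10.03 at 13.5 dpc and 7.79, 8.22 and 7.96 at 12.5 dpc. All 3 later arrays were above all 3 earlier ones, by 1.64 on average (SE 0.19, adjusted p = 6.94e-05). Tubb3, a beta-tubulin best known from neurons, had 9.79, 9.52 and 9.73 at 13.5 dpc and 7.52, 8.34 and 8.20 at 12.5 dpc. Its groups were also apart, with a difference of 1.66 (SE 0.21, adjusted p = 0.000182). These were the only members of the list of 25 junction and cytoskeleton genes past the test, and the list's median difference was -0.04 as deposited, against -0.17 over all genes.

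Etd, a gene named for its expression in the differentiating embryonic testis, had 9.12, 8.90 and 9.72 at 13.5 dpc and 7.58, 7.15 and 8.23 at 12.5 dpc. It rose by 1.59 (SE 0.25, adjusted p = 0.00133). Daam2, a formin that acts on actin, rose by 1.40 (SE 0.18, adjusted p = 0.000182), and Edn1, which encodes the precursor of endothelin-1, by 1.33 (SE 0.17, adjusted p = 0.000142). Pappa, a protease that cuts insulin-like growth factor binding proteins, rose by 1.17 (SE 0.19, adjusted p = 0.00229). Their 3 arrays at 13.5 dpc did not overlap those at 12.5 dpc, which held for 33 of the 34 genes called higher, and without a test for 2.12% of all genes in that direction. All 239 genes called lower also had stages apart, as did 18.5% of all genes in that direction.

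Other large increases were less stable. Smpx, which encodes a small muscle protein, had 8.57, 8.54 and 9.12 at 13.5 dpc and 8.16, 7.27 and 6.87 at 12.5 dpc, and rose by 1.31 (adjusted p = 0.022). Only 7 of 12 refits without 1 array still called it, with adjusted p up to 0.132 (without XY 13.5 dpc replicate 3). Cst12, of the cystatin family of protease inhibitors, had the largest difference as deposited, 2.19 (SE 0.44, adjusted p = 0.0117). It stood at 8.99, 9.17 and 10.81 at 13.5 dpc and at 7.21, 7.34 and 7.85 at 12.5 dpc, and it did not pass the test after alignment (2.06, adjusted p = 0.0619). Without the high XY 13.5 dpc replicate 3 the deposited difference was 1.62, with an adjusted p of 0.0971.

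**Figure D2:**
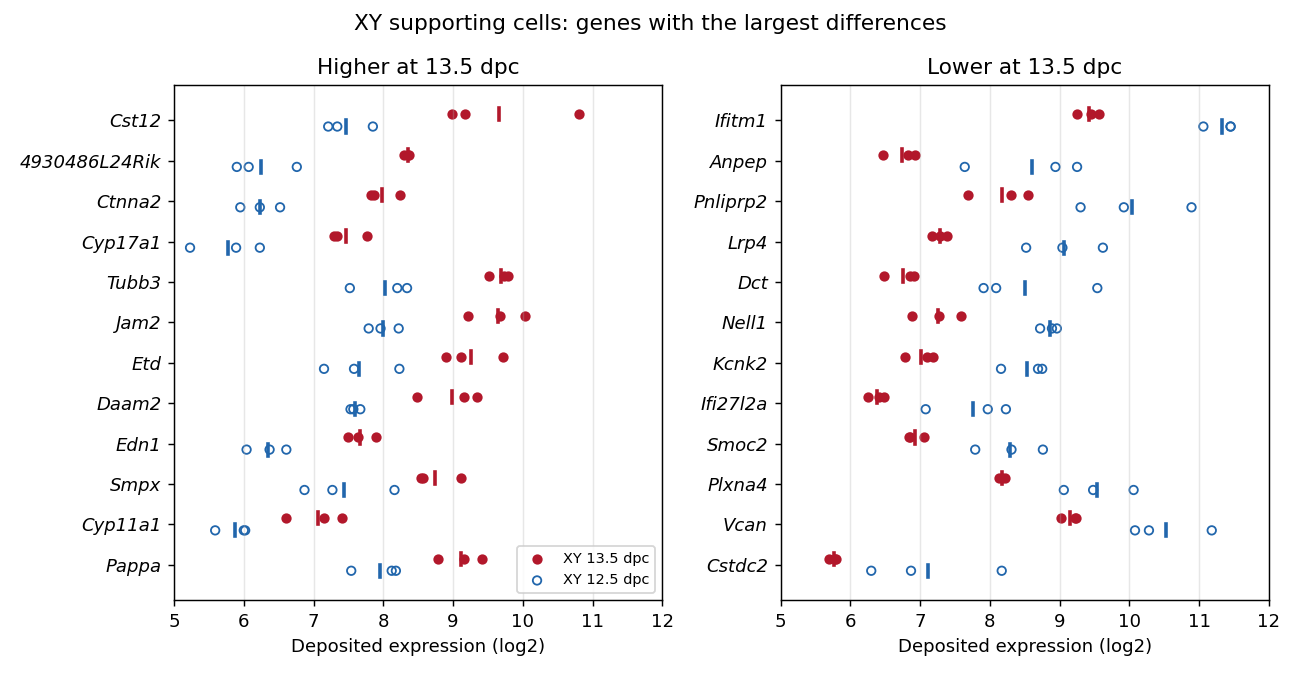
Deposited log2 expression in XY supporting cells of the 12 genes with the largest positive (left) and negative (right) differences chosen by the naming rule. Each point is an array, filled for 13.5 dpc and open for 12.5 dpc, and bars are group means. The stages do not overlap for any gene shown.

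Among the genes of steroid synthesis, Cyp17a1 and Cyp11a1 rose. Cyp17a1, the enzyme that makes androgen precursors, had 7.76, 7.30 and 7.34 at 13.5 dpc and 5.23, 6.23 and 5.89 at 12.5 dpc. It rose by 1.68 (SE 0.22, adjusted p = 0.000193), and all 12 refits without 1 array called it. Cyp11a1, the side-chain cleavage enzyme that starts steroid synthesis from cholesterol, had 7.41, 7.15 and 6.61 at 13.5 dpc and 5.59, 6.02 and 6.00 at 12.5 dpc. The groups did not overlap and the difference was 1.19 (SE 0.25, adjusted p = 0.0179), but only 5 of 12 refits without 1 array called it, with adjusted p up to 0.139 (without XY 13.5 dpc replicate 1).

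Of 13 measured genes of steroid synthesis and steroid receptors, these 2 were higher and 0 lower as deposited, where 1.37% of all genes were called, and 3 were higher after alignment (0.913% of all genes called). The additional one was Hsd3b1, a hydroxysteroid dehydrogenase of the same route, at 5.88, 6.20 and 6.01 at 13.5 dpc and 5.43, 5.87 and 5.63 at 12.5 dpc. Its arrays did not overlap, yet its difference of 0.39 missed the threshold as deposited (adjusted p = 0.192) and was 0.45 with an adjusted p of 0.0378 after alignment. Star, which delivers cholesterol to mitochondria, differed by 0.33 (adjusted p = 0.356).

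The same enzymes mark fetal Leydig cells. Of 8 markers of that cell type, 6 were measured, and Insl3 and Lhcgr were not among the genes with a single symbol. The summed linear level of the 6 was 614 to 745 at 13.5 dpc and 387 to 472 at 12.5 dpc in XY cells, and 279 to 300 at 13.5 dpc and 263 to 379 at 12.5 dpc in XX cells. Hsd3b6 and Cyp11b1, of the same list, did not pass the test and lay at 5.16 to 5.53 in the XY 13.5 dpc arrays and 5.29 to 5.97 in the XY 12.5 dpc arrays. More Leydig cells in the sort and more of these RNAs per sorted cell cannot be told apart in such bulk samples. The part of other cells in the steroid enzyme result was not tested. Among 12 interstitial or stromal markers 0 passed as deposited and 1, Dcn, after alignment (0.68, adjusted p = 0.0344). The summed level of those 12, on deposited values, was 2817 to 3016 at 13.5 dpc and 2982 to 4044 at 12.5 dpc. Ptch1, the most abundant of the 12, weighs heavily in these sums. Members moved both ways after alignment. Nr2f2 had 7.63, 7.54 and 7.46 at 13.5 dpc and 7.17, 7.04 and 7.17 at 12.5 dpc. Pdgfra had 7.29, 7.26 and 6.99 at 13.5 dpc and 8.02, 7.35 and 7.93 at 12.5 dpc. The aligned median difference of the 12 was 0.05. Among 7 smooth muscle or pericyte markers 1 was called higher after alignment, with a list median of -0.04. Aligned Acta2 was 7.02, 6.53 and 6.56 at 13.5 dpc and 6.14, 5.90 and 5.96 at 12.5 dpc. Aligned Rgs5 was 6.49, 5.85 and 6.17 at 13.5 dpc and 5.52, 5.38 and 5.48 at 12.5 dpc.

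The bases before the start of Cyp11a1, a steroid enzyme that rose, and of Fgf9, the growth factor that fell, are shown to give the promoter of a gene in each direction. They are 250 bases upstream of the annotated starts (RefSeq, GRCm38.p6), on the plus strand, with matches to the GATA motif (AGATAA or TGATAA, either strand) in capitals. RefSeq lists 2 starts for Cyp11a1.
Cyp11a1, chr9:57997774-57998023: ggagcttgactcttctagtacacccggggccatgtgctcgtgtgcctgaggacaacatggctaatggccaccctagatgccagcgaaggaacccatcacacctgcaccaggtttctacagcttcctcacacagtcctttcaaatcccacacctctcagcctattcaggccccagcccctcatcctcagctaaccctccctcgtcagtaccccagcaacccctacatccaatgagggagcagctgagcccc
Cyp11a1, chr9:58014702-58014951: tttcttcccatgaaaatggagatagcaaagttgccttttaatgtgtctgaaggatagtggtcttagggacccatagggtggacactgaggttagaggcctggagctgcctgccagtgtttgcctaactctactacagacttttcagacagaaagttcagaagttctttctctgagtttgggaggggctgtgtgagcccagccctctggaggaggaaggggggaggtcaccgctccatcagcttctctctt
Fgf9, chr14:58072436-58072685: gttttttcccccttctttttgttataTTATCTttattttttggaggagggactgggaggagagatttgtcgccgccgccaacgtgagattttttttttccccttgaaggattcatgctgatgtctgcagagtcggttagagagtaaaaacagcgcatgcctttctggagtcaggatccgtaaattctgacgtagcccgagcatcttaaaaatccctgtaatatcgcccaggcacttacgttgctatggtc
Only the Fgf9 window held a GATA match, 224 bases upstream of the start, and none of the 3 windows held the NR5A1 motif (AAGGTCA or AAGGCCA) or the SOX motif (AACAAT or AACAAAG). Of the 27 genes higher under all 3 scalings 22 had a promoter in the table, and 1 held the NR5A1 motif, 1 the SOX motif and 3 the GATA motif. Of the 57 lower genes 40 had a promoter, and 1 held the NR5A1 motif, 2 the SOX motif and 7 the GATA motif. Over 27025 promoters of the same length, with 1 promoter per gene, 8.94% held the NR5A1, 14.0% the SOX and 17.0% the GATA motif. Only the exact letters given were counted, so shorter or looser forms of each motif were not.

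Fgf9 and Id3, members of signalling lists, moved in opposite directions. Fgf9, a growth factor that favours the testis over the ovary pathway, had 8.69, 8.66 and 9.16 at 13.5 dpc and 10.27, 9.74 and 9.84 at 12.5 dpc. It fell by 1.11 (SE 0.16, adjusted p = 0.000681) with no overlap between stages, and it was the only 1 of 20 FGF signalling genes past the test. Id3, an inhibitor of helix-loop-helix factors and a classical target of bone morphogenetic proteins, had 9.33, 9.55 and 9.41 at 13.5 dpc and 8.33, 8.61 and 8.40 at 12.5 dpc. All later arrays were above all earlier ones, and the rise was 0.98 (SE 0.17, adjusted p = 0.00418). It was 1 of 2 genes past the test among 33 of the TGF-beta family list. The other, Bmp7, a bone morphogenetic protein, fell by 0.75 as deposited (adjusted p = 0.0446) and did not pass after alignment (-0.40, adjusted p = 0.248).

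Hey1, a repressor induced by Notch, had 7.58, 7.42 and 7.50 at 13.5 dpc and 9.33, 8.49 and 8.60 at 12.5 dpc. It fell by 1.31 (SE 0.19, adjusted p = 0.000681), and it was the only 1 of 18 Notch genes past the test under each of the 3 scalings. After alignment its difference was -0.98. Hedgehog and PDGF signalling had 0 of 12 members past the test. Ptch1, the hedgehog receptor, was at 10.24, 10.18 and 10.34 at 13.5 dpc and at 10.85, 10.17 and 11.07 at 12.5 dpc, with overlapping groups and a difference of -0.44 (adjusted p = 0.269).

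Ifitm1, an interferon-inducible membrane protein, had the largest decrease among the genes chosen by the naming rule, with 9.25, 9.57 and 9.45 at 13.5 dpc and 11.06, 11.45 and 11.45 at 12.5 dpc. It fell by 1.90 (SE 0.16, adjusted p = 8.1e-07), and a second probe set of the gene differed by -2.75. Anpep, aminopeptidase N of the cell surface, had 6.92, 6.83 and 6.47 at 13.5 dpc and 8.94, 7.64 and 9.25 at 12.5 dpc. It fell by 1.87 (SE 0.30, adjusted p = 0.00169), and for both genes every earlier array was above every later one.

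Lrp4, a receptor-related protein that acts in WNT signalling, had 7.39, 7.29 and 7.17 at 13.5 dpc and 9.62, 8.52 and 9.04 at 12.5 dpc. It fell by 1.77 (SE 0.19, adjusted p = 3.14e-05). Nell1, a secreted protein with EGF-like repeats, had 6.89, 7.27 and 7.59 at 13.5 dpc and 8.72, 8.89 and 8.96 at 12.5 dpc, and fell by 1.61 (SE 0.19, adjusted p = 9.19e-05). The matrix protein Smoc2 fell by 1.37 (SE 0.18, adjusted p = 0.000201) and the semaphorin receptor Plxna4 by 1.36 (SE 0.19, adjusted p = 0.000314). These 4 genes, with Ifitm1 and Anpep, were called under all 3 scalings and in all 12 refits without 1 array. After alignment the differences were -1.38 for Lrp4, -1.64 for Nell1, -1.09 for Smoc2, -0.98 for Plxna4, -1.69 for Ifitm1 and -1.76 for Anpep.

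Dct, an enzyme of melanin synthesis, fell by 1.76 (adjusted p = 0.00231), with 11 of 12 refits calling it and an adjusted p of 0.0565 in the aligned refit without XY 13.5 dpc replicate 3. Kcnk2, a background potassium channel, fell by 1.51 (adjusted p = 0.000329) and was called in 9 of 12 refits, with adjusted p up to 0.0698 (aligned, without XY 13.5 dpc replicate 1). After alignment Dct differed by -1.38 and Kcnk2 by -1.30. Ifi27l2a, another interferon-inducible gene, fell by 1.38 as deposited (adjusted p = 0.00269) and by 0.95 after alignment (adjusted p = 0.0397), where only 1 of 6 refits without 1 array called it. For the matrix proteoglycan Vcan (-1.36, adjusted p = 0.0278) and for Cstdc2 (-1.35, adjusted p = 0.023) neither centring nor alignment kept the call. The lipase-related Pnliprp2 (-1.86, adjusted p = 0.00828) was not called after alignment (adjusted p = 0.0581). Summed linear levels of some other cell types' markers, on deposited values, were also lower at 13.5 dpc in XY cells, while the median differences of these lists after alignment were small. For 13 endothelial markers the sums were 1040 to 1058 at 13.5 dpc and 1253 to 1334 at 12.5 dpc, with an aligned median difference of -0.05. For 9 pregranulosa markers they were 1504 to 1695 at 13.5 dpc and 2067 to 2811 at 12.5 dpc, with an aligned median of -0.10. For 6 erythroid markers they were 975 to 1111 at 13.5 dpc and 1171 to 4090 at 12.5 dpc, with an aligned median of -0.15. The high erythroid values lay in XY 12.5 dpc replicate 1, where the globin gene Hbb-y, after alignment, was 9.01, 8.90 and 9.01 at 13.5 dpc and 10.85, 8.99 and 9.05 at 12.5 dpc. Their part in the decreases was not tested. For 15 germ cell markers the sums were 1459 to 1607 at 13.5 dpc and 1465 to 1759 at 12.5 dpc, with an aligned median of 0.14. After alignment 0 of the 15 passed, and members moved both ways. Aligned Ddx4 was 5.99, 5.94 and 5.91 at 13.5 dpc and 5.38, 5.54 and 5.49 at 12.5 dpc. Aligned Utf1 was 7.44, 7.97 and 7.71 at 13.5 dpc and 8.45, 8.12 and 8.30 at 12.5 dpc. The part of germ cells was not tested.

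Most transcription factors of the testis pathway and most listed Sertoli cell products did not pass the test. Sox9, the factor whose reporter was used for the sort, lay between 10.96 and 11.11 in the 3 arrays at 13.5 dpc and between 11.34 and 11.84 in those at 12.5 dpc. The stages did not overlap, but the difference of -0.49 did not pass the test (SE 0.17, adjusted p = 0.122) and was -0.13 after alignment. Sry, the Y-linked switch gene, had 7.91, 7.96 and 7.74 at 13.5 dpc and 8.78, 8.15 and 8.75 at 12.5 dpc. In XX supporting cells, which carry the Sry-EGFP transgene, the same probe set lay at 7.76 to 7.98 at 13.5 dpc and at 7.74 to 8.25 at 12.5 dpc. The XY level at 13.5 dpc was thus within the range of XX cells, and the size of the difference is uncertain. The difference was -0.69 as deposited (adjusted p = 0.0369), -0.60 after alignment (adjusted p = 0.0092) and -0.53 with arrays centred (adjusted p = 0.138). Only 6 of 12 refits without 1 array called it, with adjusted p up to 0.152 (without XY 13.5 dpc replicate 3).

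Nr5a1, the nuclear receptor that activates Amh and the steroid enzymes, had 8.54, 8.58 and 8.80 at 13.5 dpc and 10.00, 9.21 and 9.19 at 12.5 dpc. It fell by 0.83 as deposited (adjusted p = 0.0257), did not pass with arrays centred (adjusted p = 0.0913), and was called in 3 of 12 refits. Sox8, a close relative of Sox9, had 8.15, 8.83 and 8.71 at 13.5 dpc and 7.91, 7.84 and 7.89 at 12.5 dpc. It rose by 0.68 (adjusted p = 0.0457), with an adjusted p of 0.0655 after alignment and 3 of 12 refits calling it, so that leaving out XY 13.5 dpc replicate 2 gave 0.55 (adjusted p = 0.226). Over the 20 measured testis transcription factors, 1 was higher and 2 lower as deposited, and 0 higher and 2 lower after alignment. Over all genes 1.37% were called as deposited and 0.913% after alignment.

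Amh, which encodes anti-Müllerian hormone, had 9.98, 9.66 and 9.88 at 13.5 dpc and 9.67, 10.12 and 10.17 at 12.5 dpc, a difference of -0.15 (SE 0.17, adjusted p = 0.678) between overlapping groups. Dhh, the hedgehog ligand of Sertoli cells, differed by -0.53 (adjusted p = 0.129), and Ptgds, a prostaglandin synthase, by 0.22 (adjusted p = 0.555). Wt1, Gata4, Dmrt1, Cyp26b1 and Inhbb also failed to pass, with differences from -0.64 for Cyp26b1, the enzyme that breaks down retinoic acid, to -0.24 for Inhbb, an activin and inhibin subunit. Of 32 Sertoli cell products, 1 was higher (Etd) and 2 were lower as deposited, where 1.37% of all genes were called. The lower ones were Fgf9 and Kitl, the ligand of the KIT receptor, whose difference of -0.83 (adjusted p = 0.0133) was -0.41 after alignment (adjusted p = 0.242). Inhba, an activin subunit on this list and on the TGF-beta family list, was called higher after alignment only (0.70).

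**Figure D3:**
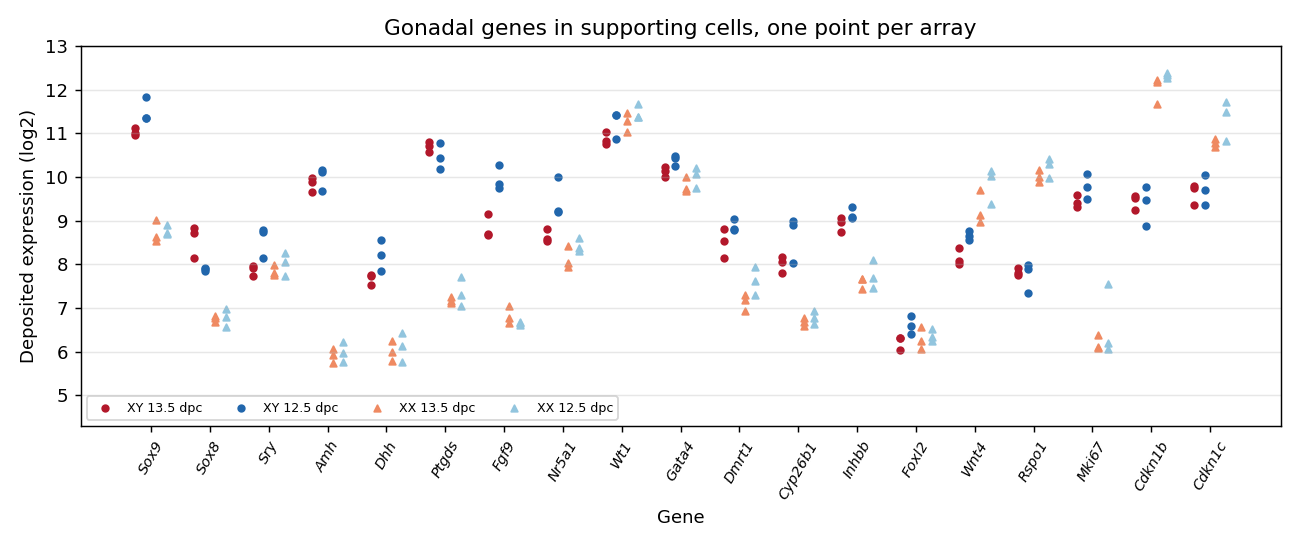
Deposited log2 expression of gonadal and cell cycle genes, with 1 point per array, in XY (circles) and XX (triangles) supporting cells at 13.5 and 12.5 dpc. Amh and Ptgds overlap between the XY stages, and Fgf9 lies lower in the 3 XY 13.5 dpc arrays than in the 3 XY 12.5 dpc arrays.

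Most genes of the ovarian pathway did not pass the test. Foxl2, the granulosa cell factor, had 6.04, 6.32 and 6.31 at 13.5 dpc and 6.82, 6.41 and 6.59 at 12.5 dpc, a difference of -0.38 that did not pass (adjusted p = 0.193). In XX cells it averaged 6.29 at 13.5 dpc and 6.36 at 12.5 dpc, no higher than in XY cells at 12.5 dpc, so this probe set gives little information on the gene. Wnt4 differed by -0.50 (adjusted p = 0.181) and Rspo1 by 0.08 (adjusted p = 0.854). Of 27 WNT and pregranulosa genes, 3 were lower as deposited, where 1.2% of all genes were called lower. They were Lgr5 (-0.88), Runx1 (-0.87) and Lgr4 (-0.80), of which Runx1 (-0.56, adjusted p = 0.0435) and Lgr4 (-0.56, adjusted p = 0.0282) were called after alignment and Lgr5 (-0.51, adjusted p = 0.225) was not. After alignment 2 of the 27 were lower, where 0.557% of all genes were called lower. With arrays centred, where 0.727% of all genes were called, 0 of the 27 passed.

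Cell cycle genes did not pass the test in either direction. Of 24 mitosis genes 0 were called under each of the 3 scalings, with a median difference of -0.40 as deposited and -0.20 after alignment, against -0.17 and -0.02 over all genes. Of 39 DNA replication genes 0 were called under each scaling, with a median difference of -0.29 as deposited and -0.15 after alignment. Mki67, a marker of dividing cells, had 9.32, 9.58 and 9.40 at 13.5 dpc and 9.50, 10.06 and 9.76 at 12.5 dpc, with overlapping groups (-0.34, SE 0.26, adjusted p = 0.465). The cyclin-dependent kinase inhibitors Cdkn1b (0.07, adjusted p = 0.91) and Cdkn1c (-0.06, adjusted p = 0.897) did not pass. Another Cdkn1b probe set differed by -0.42, opposite in sign, and did not pass either (adjusted p = 0.173 over all probe sets).

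Metabolic lists also had few or no members past the test, but their medians differed in sign. Of 26 cholesterol and fatty acid synthesis genes 1 was called, Acaca, which makes malonyl-CoA (-0.75, adjusted p = 0.0423), and it was not called after alignment (adjusted p = 0.469) or centring (adjusted p = 0.151). When all probe sets were tested, this Acaca probe set did not pass (adjusted p = 0.0975). Another Acaca probe set differed by only -0.20 (adjusted p = 0.812). The list's median difference was 0.28 with arrays centred and 0.21 after alignment. Glycolysis and glycogen genes had 0 of 24 and glutathione and redox genes 0 of 23 past the test, counting 1 probe set per gene. The glycolysis and glycogen median was -0.32 as deposited and -0.19 after alignment, against -0.17 and -0.02 over all genes. For Hk1, a hexokinase, the probe set counted differed by -0.35, while another, which was not counted, differed by -1.23 and passed when all probe sets were tested (adjusted p = 0.0119). Retinoic acid genes had 0 of 18.

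Of 26 basement membrane and matrix genes, Col18a1, which encodes a basement membrane collagen, fell by 0.90 (SE 0.16, adjusted p = 0.00476) and Col9a2 by 0.75 (SE 0.15, adjusted p = 0.0119). Other members were higher under other scalings only. They were Timp3, an inhibitor of metalloproteinases, called with arrays centred (0.79) and aligned (0.79), and Lama1, a laminin chain, called after alignment (0.69, adjusted p = 0.00306). Col18a1 and Col9a2 were called under all 3 scalings, with the Col9a2 difference at -0.35 after alignment. Col18a1 was called in 11 of 12 refits without 1 array and Col9a2 in 6 of 12, with adjusted p up to 0.0502 (aligned, without XY 13.5 dpc replicate 1) and 0.0814 (aligned, without XY 13.5 dpc replicate 1).

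Of 16 genes that respond to tissue dissociation, 2 were lower, namely Fos, an immediate early factor (-0.91, adjusted p = 0.00828), and its relative Fosb (-1.18, adjusted p = 0.0182). Fos was called under all 3 scalings and in 6 of 12 refits, with adjusted p up to 0.092 (aligned, without XY 13.5 dpc replicate 1), whereas Fosb was not called after centring or alignment. The median of this list was -0.37 as deposited and -0.20 after alignment. Its part in the other decreases was not tested. Among growth factors and niche signals 3 of 24 were lower as deposited, Kitl, the repulsive cue Sema3a and the vessel growth factor Vegfa, and none of these 3 passed with arrays centred or aligned. Ptn, a heparin-binding growth factor, was called higher with arrays centred only, and differed by 1.34 as deposited (adjusted p = 0.053). Igf2, an insulin-like growth factor, was called lower after alignment only (-0.51, adjusted p = 0.0351).

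**Figure D4:**
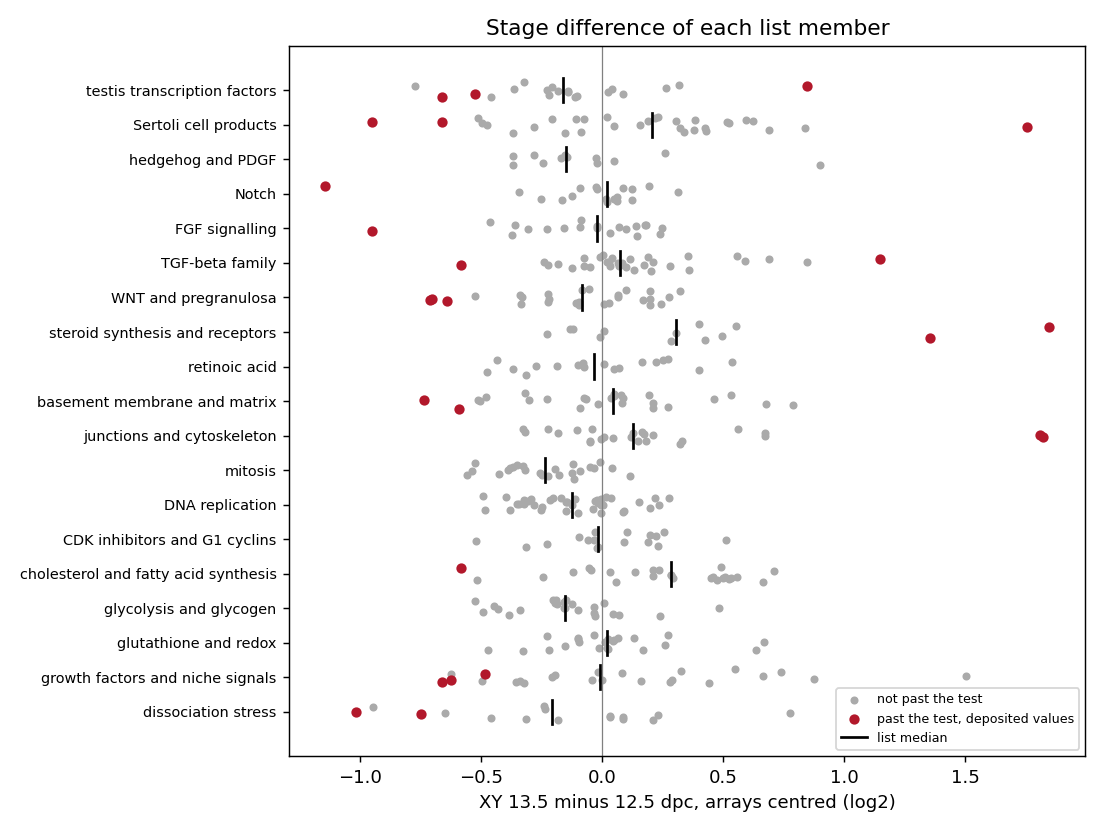
Difference between 13.5 and 12.5 dpc XY supporting cells (log2, arrays centred) of each member of 19 gene lists. Each point is a gene, filled red where it passed the test on deposited values, and bars are list medians. Steroid synthesis and junction lists each hold 2 red points on the higher side, at 1.35 to 1.85.

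The stage difference in XY cells was then set against that in XX supporting cells, by testing the difference of the 2 stage differences. Sex, reporter line and strain change together between XX and XY cells and cannot be told apart. The fit called 20 genes with a more positive (0.1%) and 19 with a more negative (0.0953%) stage difference in XY cells. Of the genes called in XY under all 3 scalings, 11 of 27 higher and 8 of 57 lower ones also passed this test. The test contains the same XY difference by which these genes were chosen, so these counts are no independent support.

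For Cyp17a1 the stage difference was 1.68 in XY cells and 0.09 in XX cells, and they differed by 1.60 (SE 0.31, adjusted p = 0.0291). For Cyp11a1 it was 1.19 in XY cells and -0.62 in XX cells, a gap of 1.80 (SE 0.36, adjusted p = 0.0323). In XX cells Cyp17a1 averaged 5.53 at 13.5 dpc and 5.44 at 12.5 dpc, and Cyp11a1 averaged 5.41 at 13.5 dpc and 6.02 at 12.5 dpc. Jam2 (gap 1.70, adjusted p = 0.00667), Tubb3 (gap 1.51, adjusted p = 0.0323) and Etd (gap 1.72, adjusted p = 0.0418) were also past the test, with XX differences of -0.05, 0.14 and -0.13. Jam2 averaged 6.19 at 13.5 dpc and 6.24 at 12.5 dpc in XX cells, and Etd 5.34 and 5.47. These levels, like those of Cyp17a1, lay below the XX array medians of 6.70 to 7.01. A fall in XX cells may not be measurable at such levels, so these gaps may mostly repeat the XY difference.

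Fgf9 had 6.77, 6.66 and 7.04 in the XX 13.5 dpc arrays and 6.69, 6.61 and 6.66 in the XX 12.5 dpc arrays. Its stage difference in XX cells was 0.17, and the gap to the XY cells was -1.28 (SE 0.23, adjusted p = 0.0149). Id3 differed the other way, by -0.29 in XX cells, with a gap of 1.28 (SE 0.24, adjusted p = 0.0231). Ifitm1 averaged 12.29 ± 0.05 at 13.5 dpc and 12.53 ± 0.35 at 12.5 dpc in XX cells (SD, n = 3 each). The Ifitm1 gap was -1.66 (SE 0.23, adjusted p = 0.00113). These 3 gaps also passed with arrays centred and with row sets aligned.

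**Figure D5:**
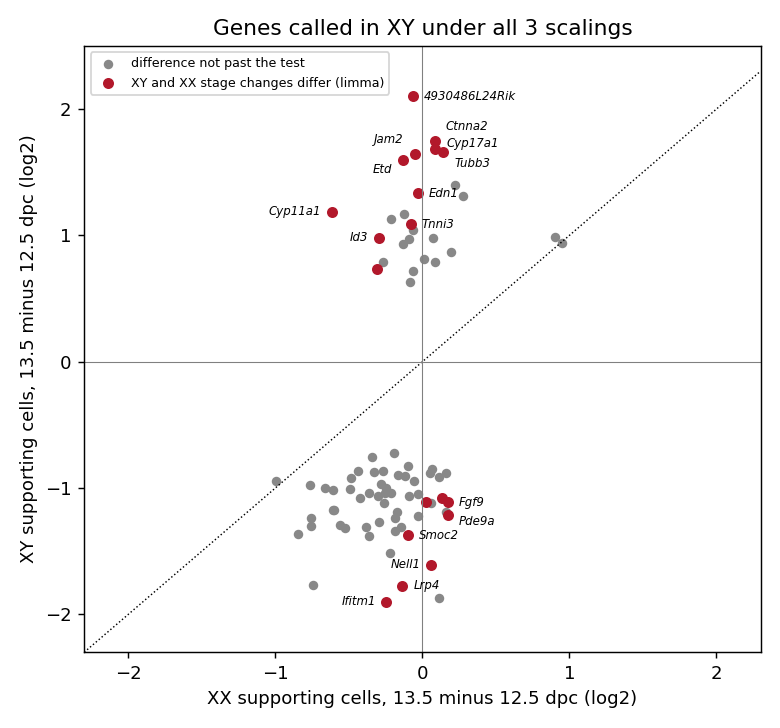
Stage difference (13.5 minus 12.5 dpc, log2, deposited values) in XY cells (vertical) against XX supporting cells (horizontal) for the 84 genes called in XY under all 3 scalings. Red points passed limma's test of the difference between the sexes, the named ones are labelled, and the dotted line marks equal differences. Cyp17a1, Jam2, Tubb3 and Fgf9 lie near 0 in XX cells, where the levels of Cyp17a1 and Jam2 were below the array medians.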

How the data were processed

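RNA was measured on Affymetrix Mouse Gene 1.0 ST arrays. The authors deposited log2 values for each probe set; RMA is the tool named per the submitters' processing notes, with no version. The table held 35557 probe sets on 36 arrays. Of these, 21789 probe sets carried 1 gene symbol in the platform annotation, and for 999 genes with several the probe set with the highest mean was kept, leaving 19938 genes. No level filter was used.

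The model was limma's lmFit and eBayes (version 3.58.1, R 4.3.3) on the 18 supporting cell arrays. They form 6 groups with 12 residual degrees of freedom, among them XX and XY cells at 11.5 dpc. The spread of all 6 groups thus enters each SE. Estimated array weights, lower where the spread is wider, were 0.21, 0.34 and 1.00 for XY 12.5 dpc. They were 2.23, 2.11 and 0.47 for XY 11.5 dpc and 1.99, 1.84 and 1.91 for XX 11.5 dpc. A fit on only the 6 arrays compared called 207 genes (37 higher, 170 lower). Tests were two-sided, with Benjamini-Hochberg adjustment across the genes and a threshold of 0.05. On simulated arrays of this comparison, with 19938 genes, 84 of 100 genes changed by 1 and 99 of 100 changed by 2 on the log2 scale were recovered, with 15 false calls. The simulated noise was drawn separately for each gene, without row set scales or shifts of whole arrays. These figures therefore do not cover errors shared across genes, which the deposited values hold. Row sets were found from the spacing of the values. For alignment, each set was divided by its slope (1.0099 to 1.059) and moved to a common median. No batch was modelled because no scan date was at hand, and 3 arrays per group limit precision.

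Named genes were the 12 largest differences in each direction among genes past the test, with stages not overlapping and the higher mean above 7 on the log2 scale. Up to 4 members per direction of each gene list, or its 2 most expressed genes where none passed, a fixed set of gonadal and cell cycle genes, and the 6 largest differences from XX in each direction were added. Eif2s3y, Xist, Hsd3b1, Star, Dcn, Hsd3b6, Cyp11b1, Hbb-y, Hk1, Lama1, Timp3, Ptn, Igf2 and Inhba, and genes said so in the closing section, were chosen after their values were seen. Nr2f2, Pdgfra, Acta2, Rgs5, Ddx4 and Utf1 were also chosen after their values were seen. Members and lists were chosen with earlier results of these data known. Tables and plots used Python 3.11.15, numpy 2.4.6, pandas 2.3.3 and matplotlib 3.10.9.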

Additional observations from a re-analysis of the deposited data

Results flagged for a closer look

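Each of the following genes had a stage difference (13.5 minus 12.5 dpc) in XY supporting cells that differed from that in XX supporting cells by limma's test of that difference, as deposited. Given as the XY minus the XX stage difference in log2, the more positive genes among those described in the text were 4930486L24Rik (2.17), Cyp11a1 (1.80), Etd (1.72), Jam2 (1.70), Ctnna2 (1.66), Cyp17a1 (1.60), Tubb3 (1.51), Edn1 (1.36), Id3 (1.28) and the troponin Tnni3 (1.17). The more negative ones were Nell1 (-1.67), Ifitm1 (-1.66), Lrp4 (-1.64), the phosphodiesterase Pde9a (-1.39), Lgr5 (-1.35), Fgf9 (-1.28) and Smoc2 (-1.27). Several of these genes averaged below the array medians in XX cells, where their gap may mostly repeat the XY difference. Examples at 13.5 and 12.5 dpc were 4930486L24Rik (5.36 and 5.43), Ctnna2 (5.46 and 5.38) and Edn1 (5.82 and 5.85).

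For other genes the gap came mainly from XX cells. Sprr2d, a small proline-rich protein of epithelia, had the largest gap, 3.10. It had 5.57, 5.57 and 5.85 in XY cells at 13.5 dpc and 6.25, 5.93 and 5.99 at 12.5 dpc, while in XX cells it had 6.59, 7.03 and 6.72 at 13.5 dpc and 9.56, 11.14 and 10.12 at 12.5 dpc. Igfbp3, a binding protein of insulin-like growth factors, had a gap of 2.40, with stage differences of 0.71 in XY and -1.69 in XX cells. Cntnap5a, of the contactin-associated family, had a gap of 1.92, with -0.12 in XY and -2.04 in XX cells. Mgp, matrix Gla protein, had a gap of -1.84, with 0.10 in XY and 1.94 in XX cells.

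Gem (gap -1.79) and Fam83d (gap -1.74) had stage differences of -0.98 and -0.89 in XY cells and of 0.80 and 0.85 in XX cells. Only 1 of 12 refits without 1 array called the XY difference of either gene. In the aligned refits the XY difference was -1.01 to -0.57 for Gem and -0.49 to -0.30 for Fam83d. Gem no longer passed the test of the gap after alignment (adjusted p = 0.0768), and Lgr5 no longer passed it with arrays centred (adjusted p = 0.0599).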

How the results depend on the processing

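No named gene past the test changed direction under the settings tried, but the counts of genes called depended on the scaling and on single arrays. In place of 273 genes (34 higher, 239 lower at 13.5 dpc), a fit on all 36 arrays called 73 (15 higher, 58 lower), and leaving out the germ cell array that stands apart gave 155 lower. Centring gave 145 (70 higher, 75 lower), quantile normalisation 130 (63 higher, 67 lower), and row set alignment 71 higher and 111 lower. All probe sets as background gave 127 (22 higher, 105 lower), and array weights 659 (615 lower). With row sets aligned and only the 6 arrays compared, 145 were called (67 higher, 78 lower). Without 1 XY array, as deposited, totals ran from 95 (without 13.5 dpc replicate 1) to 1570 (without 12.5 dpc replicate 2), with 16 to 62 higher and 74 to 1508 lower. Only leaving out 12.5 dpc replicate 3 (295 genes) moved the total by less than 1.5 times. Aligned, they ran from 84 to 223 (same arrays), with 43 to 65 higher and 41 to 164 lower. Alignment combined with another change was added after seeing the data.

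For the difference from XX cells, in place of 39 genes (20 more positive, 19 more negative), all 36 arrays gave 13 (7 and 6), alignment 81 (44 and 37), all probe sets 10 (5 and 5), and genes above the median level 25 (11 more positive). Without 1 array, totals were 18 (without XY 13.5 dpc replicate 1) to 63 (without XY 12.5 dpc replicate 2; 8 to 22 and 8 to 41) as deposited and 39 to 81 (22 to 35 and 17 to 51) aligned. Replicate numbers did not pair the XY arrays, since same-numbered deviations correlated at -0.12, -0.06 and -0.04. With the replicate block 191 genes were called for the stage difference and 27 for the difference from XX. With alignment and the replicate block these were 131 (61 higher, 70 lower) and 53 (31 more positive). The causes were not tested.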

Other observations

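The genes in these paragraphs were chosen after their values were seen. They are single genes and stand for no group. Robo1, a receptor for SLIT guidance cues, had 10.66, 10.65 and 10.59 at 13.5 dpc and 12.30, 11.64 and 11.99 at 12.5 dpc, with a difference of -1.34 (SE 0.18, adjusted p = 0.000307). Adgrl3, an adhesion receptor, differed by -1.30 (SE 0.16, adjusted p = 0.000141), and Tgfbi, a matrix protein induced by TGF-beta, by -1.27 (SE 0.20, adjusted p = 0.00169). Scube1 (-1.31), the integrin subunit Itga4 (-1.23), Matn2 (-1.17) and Smoc1 (-1.04) were also called under all 3 scalings. After alignment the differences were -0.91 for Robo1, -0.90 for Adgrl3, -1.12 for Tgfbi and -0.84 for Scube1. They were -0.85 for Itga4, -0.88 for Matn2 and -0.76 for Smoc1. Adgrl3, Tgfbi and Matn2 were called in all 12 refits without 1 array. In the aligned refits without 1 array the highest adjusted p was 0.0821 for Robo1 (without XY 13.5 dpc replicate 3), 0.0668 for Itga4 (without XY 13.5 dpc replicate 1), 0.0571 for Smoc1 and 0.0504 for Scube1 (each without XY 13.5 dpc replicate 3).

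Tnni3, the troponin I of heart muscle, was at 11.19, 11.18 and 11.22 at 13.5 dpc and at 9.97, 10.21 and 10.15 at 12.5 dpc, a rise of 1.09 (SE 0.14, adjusted p = 0.000182) with no overlap. The cyclic nucleotide phosphodiesterases Pde9a (-1.21, SE 0.14, adjusted p = 5.26e-05) and Pde2a (-1.11, SE 0.18, adjusted p = 0.00169) were lower. Peg3, a paternally expressed imprinted gene, had 10.10, 10.03 and 10.10 at 13.5 dpc and 10.89, 11.33 and 11.36 at 12.5 dpc (-1.12, SE 0.15, adjusted p = 0.000307). These 4 genes were called under all 3 scalings and in all 12 refits without 1 array. Kazald1 (0.99 in XY, 0.90 in XX) and Vsnl1 (0.94 in XY, 0.95 in XX) were higher at 13.5 dpc in both sexes, and Plxna4 (-1.36 in XY, -0.85 in XX) was lower in both, each past the test in each sex. Kazald1 lost its XY call in aligned refits without 1 array (adjusted p up to 0.0679, without XY 13.5 dpc replicate 2) and Vsnl1 in both kinds of refit (up to 0.0752, aligned, without XY 12.5 dpc replicate 3).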
